A study of Mus musculus with 6 samples.

Results

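The histone genes of the canonical families were examined in BV2, a mouse microglia line that grows without limit, labelled with the strain background C57BL/6. The genes were chosen by symbol (H1f, H2ac, H2bc, H3c and H4c names, and the older Hist1h to Hist4h names, of which none was listed). The choice was made with earlier results of these data known. It gave 69 of the 40202 genes measured: 11 of H1, 17 of H2A, 17 of H2B, 12 of H3 and 12 of H4. Total RNA of 3 samples that received human full-length apolipoprotein E4 protein (FL-ApoE4) at 25 µg/ml for 5 h was compared with that of 3 untreated samples. Whether the untreated cells received the vehicle of the protein is not stated in the labels, and nothing there says that the replicates of a group came from separate cultures, so each p-value reflects the spread of these libraries alone, which may be technical. The line is a single immortalised population, and the comparison covers a single dose and time.

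Replication-dependent histone genes supply the proteins that package newly made DNA, and cells transcribe them mainly in S phase. Their messenger RNAs carry no introns and normally end just after a conserved stem-loop in place of a poly(A) tail. The stem-loop is bound by SLBP, which acts in their 3′ end formation and translation. Linker histone H1 sits on the DNA between nucleosomes, and H2A, H2B, H3 and H4 form the nucleosome core. The chosen symbols also take in genes that are not of this S-phase kind: H1f0 and H1f10 are replication-independent linker histones, H1f7 and H1f9 belong to the testis, and H1f8 is the linker histone of the oocyte.

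The stem-loop is the feature that most sets these messages apart, so a few are shown, read from GENCODE M21 transcripts (build GRCm38) 5′ to 3′ on the strand of the gene. Capitals mark the 16-base stem-loop core, with 5 bases on each side in lower case. H1f2, H2bc6 and H4c9 are among the 6 most abundant members, H1f4 and H2bc22 had the lowest p-values of their class, H2bc3 and H3c8 carry less common loops, and H4c8 shows the form most common in H4.
H1f2: caaaaGGCUCUUUUCAGAGCCaccac
H2bc6: ccaaaGGCUCUUUUCAGAGCCaccca
H4c9: uuaaaGGCCCUUUUUAGGGCCaccac
H1f4: ccaaaGGCUCUUUUCAGAGCCaccca
H2bc22: acaaaGGCUCUUUUCAGAGCCaccca
H2bc3: ccaaaGGCUCUUUUAAGAGCCaccca
H3c8: uuaaaGGCUCUUCUUAGAGCCaccca
H4c8: ccaaaGGCCCUUUUCAGGGCCgccca

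A stem-loop core was found after the stop codon, on the strand of the message, in 43 of the 67 members with a reference transcript. All 43 (64.2%) lay within 100 bases of the stop codon, starting 21 to 58 bases after it (median 31). In the same window, 5 of 21452 other genes with a coding transcript held a match (0.0233%): H2aw, H2ax, H2bu2, H4f16 and Ly6f. All but Ly6f bear histone symbols outside the selection, so the chosen members may not be the whole family. The matched members shared 8 distinct cores, and 24 of them had GGCUCUUUUCAGAGCC. The stem divided the classes: all 32 matched genes of H1, H2A, H2B and H3 began with GGCUC, whereas the 11 matched genes of H4 began with GGCCC (9 genes) or GGUCC (2 genes). In 17 of the 24 members without a match, the annotated transcript held fewer than 60 bases after the stop codon, so the absence says little for them.

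Most members were scarce. Values are the authors' normalised reads, that is, reads per gene divided by a factor for each library. The mean over the 6 libraries reached 10 in 25 of the 69 members, namely 5 of H1, 6 of H2A, 8 of H2B, 3 of H3 and 3 of H4. Of the 44 below 10, H3c3 (9.96) and H2bc11 (9.74) were nearest to that limit, and 6 were listed at 0 in every library: H1f7, H1f9, H1f10, H2ac1, H2bc1 and H4c17. Genes that dividing cells commonly use, such as Cdk2, Nfyb, Exosc4 and Asf1a, were also listed at 0 in every library, so a 0 here need not mean that a gene was not expressed. At least a single read was present in every library for 48 members and in some libraries for 15. H2ac23 (mean 10.1) entered the 25 through a single library, as described with the H2A genes.

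**Figure D1:**
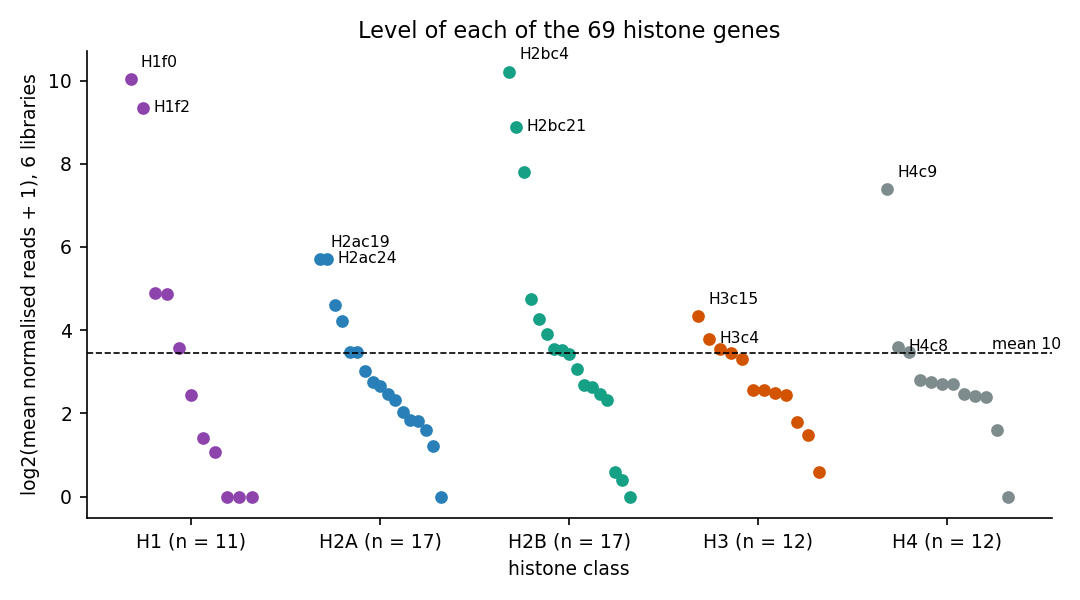
Each point is a histone gene; the y axis is log2 of its mean normalised reads over the 6 libraries plus 1, the x axis the histone class, and the dashed line a mean of 10. The 2 most abundant genes of each class are named; H1 and H2B hold the highest genes, and 25 of the 69 lie at or above the line.

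A few genes held most of the reads. H2bc4, H1f0, H1f2, H2bc21, H2bc6 and H4c9 together had 87.4% of the normalised reads of all members, and the other 63 members had 12.6%. By class, H2B held 46.7% and H1 41.3%, while H4 had 5.28%, H2A 4.73% and H3 1.99%. Per kilobase of the longest GENCODE M21 transcript, the order was H2bc4 at 1021 normalised reads, H1f0 at 508, H1f2 at 414, H4c9 at 229, H2bc21 at 181, H2ac24 at 106, H2ac19 at 97.1 and H2bc6 at 88.7. The transcript used in these cells may be shorter than the longest annotated form, which would raise the level per kilobase of genes such as H1f3, whose longest form has 7425 bases and which had 3.82 normalised reads per kilobase.

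The abundant members had long annotated ends. In 23 members the annotated transcript ran at least 50 bases past the stem-loop, among them H1f2 (840 bases), H2bc6 (1861 bases) and H4c9 (330 bases), and these 23 held 29.1% of the members' normalised reads. In 7 further members no stem-loop matched although at least 60 bases followed the stop codon; they included H2bc4, H1f0 and H2bc21 and held 63.4%. The 20 members annotated to end within 50 bases of the stem-loop held 5.46%, and none of them had a mean of at least 100. Per kilobase, however, the median gene had 11.7 normalised reads among these 20 and 10.3 among the 23 extended genes. A poly(A) signal AAUAAA lay within 40 bases of the annotated end in 7 of the extended members, H1f2 among them. The search covered only members with a stem-loop match, so not H2bc4, H1f0 or H2bc21. The H1f2 signal is shown here in capitals. The stretch stops short of the annotated end, which lies 20 bases after the signal.
H1f2 end: augcuucuAAUAAAaagcguuuaguuuuca
How the libraries were enriched for messenger RNA is not given in the sources used here, and the share of members that carry a tail was not measured.

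Levels of the replication-independent histone genes ranged widely, and several exceeded every member per kilobase. H2az1, an H2A variant, had 19450 normalised reads per kilobase, H3f3b, which encodes H3.3, had 9755, H3f3a, also a gene for H3.3, had 2761, and Cenpa, the centromeric H3, had 1505, all above H2bc4 at 1021. H2aj and Macroh2a1, both H2A variants, had 2213 and 1780. H2az2, another H2A variant, had 735 and Macroh2a2 15.3 normalised reads per kilobase. H4f16 had 1.42, but a stem-loop core matched after its stop codon, so it is not counted as replication-independent here. In normalised reads without regard to length, H2az1 alone exceeded the sum of the 68 members other than H1f0 by 6.44-fold and H3f3b by 7.60-fold. H2ax, which gives rise to both a stem-loop and a tailed message, was listed at 0 in all 6 libraries.

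All members together had 4211, 3786 and 4237 normalised reads in the FL-ApoE4 libraries, against 4179, 4839 and 4379 in the control libraries. These correspond to 82.6, 74.3 and 83.2 in every 1000000 reads with FL-ApoE4 and to 78.9, 95.6 and 86.0 in the controls. The groups overlapped, and the ratio of the mean sums was -0.13 on the log2 scale, FL-ApoE4 over control. H1f0, which is replication-independent, held 24.4% of the members' normalised reads. The other 68 members had 3120, 2844 and 3183 with FL-ApoE4, against 3195, 3679 and 3344 in controls (log2 ratio -0.16). Their groups did not overlap, an arrangement that 10.9% of the 14079 single genes tested also showed. In bulk RNA, fewer cells in S phase and less histone RNA per cell cannot be told apart.

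Sums were also taken by class. The 17 H2A genes summed to 168, 171 and 183 normalised reads with FL-ApoE4, against 233, 249 and 206 in controls (log2 ratio -0.40). Of the 233 in control replicate 1, H2ac23 supplied 41.3, against at most 5.65 in any other library. The 12 H4 genes summed to 186, 184 and 221 with FL-ApoE4, against 245, 269 and 247 in controls (log2 ratio -0.36). For both classes every FL-ApoE4 library lay below every control library, an arrangement that 10.9% of the 14079 single genes tested also showed. The other classes overlapped: the log2 ratio was -0.12 for the 11 H1 genes, -0.09 for the 17 H2B genes and -0.04 for the 12 H3 genes. Of H1, the 6 genes left without H1f0, H1f7, H1f8, H1f9 and H1f10 had 659, 626 and 692 normalised reads with FL-ApoE4, against 705, 870 and 753 in controls (log2 ratio -0.24), without overlap. The 63 members other than the 6 most abundant summed to 439.5, 423 and 543 with FL-ApoE4, against 597, 658 and 567 in controls (log2 ratio -0.38), while the 6 most abundant had a log2 ratio of -0.10 and overlapped. No test was made of these sums.

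**Figure D2:**
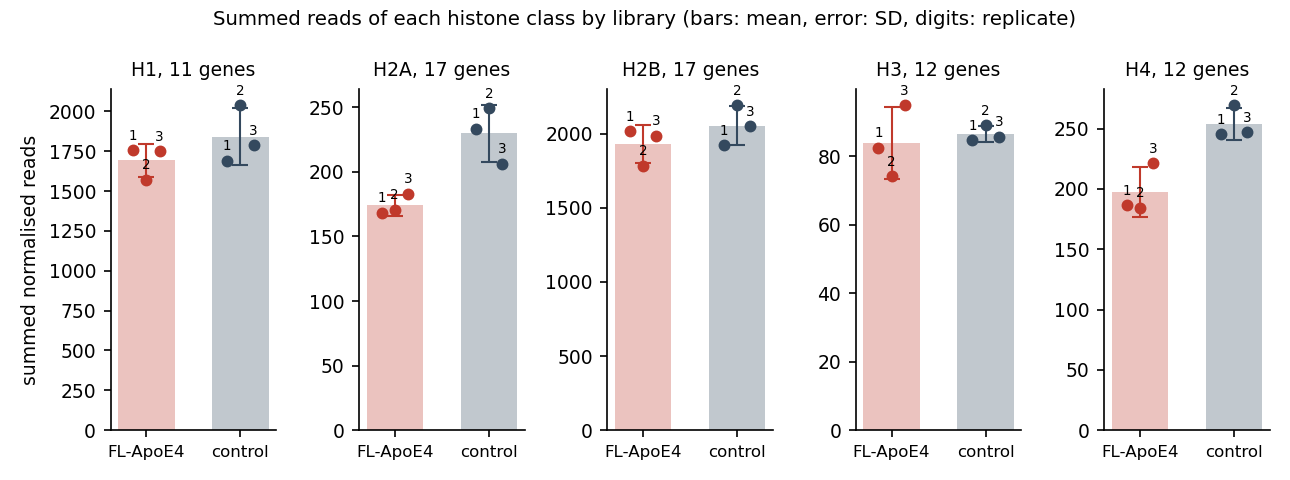
Summed normalised reads of each histone class (y axis, from 0) in the FL-ApoE4 and control libraries (x axis); bars are means, error bars SD (n = 3 each), points libraries marked with the replicate number. The groups are apart for H2A and H4 and overlap for H1, H2B and H3.

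Gene by gene, limma with a mean-variance trend on log2(normalised reads + 1) called none of the 25 members with a mean of at least 10 at an adjusted p under 0.05. It called 0 of the 14079 genes tested (0%). The smallest adjusted p of a member was 0.236, for H1f4. At an unadjusted p under 0.05, 3 of the 25 members were lower with FL-ApoE4 (12%, against 6.33% of all genes), namely H1f4, H4c9 and H2bc22, and 0 were higher (6.81% of all genes). On the reads recovered from the deposited values, edgeR's quasi-likelihood test called 0 members and had the same 3 genes lower at an unadjusted p under 0.05 (6.29% of all genes). DESeq2 called 0 members among 390 genes (2.77%), gave no adjusted p for 17 of the 25, and had H1f4, H4c9 and H2ac23 lower at an unadjusted p under 0.05 (6.11% of all genes). In the authors' deposited table, 0 of the 12 members with an adjusted p were under 0.05, the smallest being 0.278, and H1f4, H4c9 and H2ac23 had an unadjusted p under 0.05.

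Most members nevertheless had a negative value. The log2 fold change was below 0 in 21 of the 25 tested members, against 49.7% of all genes tested, and the median was -0.22, against 0.0011 over all genes tested. Among the 3253 tested genes with a mean between 10 and 100, the range that holds 19 of the 25 members, 45.1% were negative and the median was 0.05; the 19 members had a median of -0.30, with 16 negative. All 3 FL-ApoE4 libraries lay below all 3 controls for 3 members (12%, against 10.9% of all genes), and above them for H4c12 alone (4.0%, against 11.1%). With trends of transcript length and GC content removed from each library, the members' median was -0.23.

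**Figure D3:**
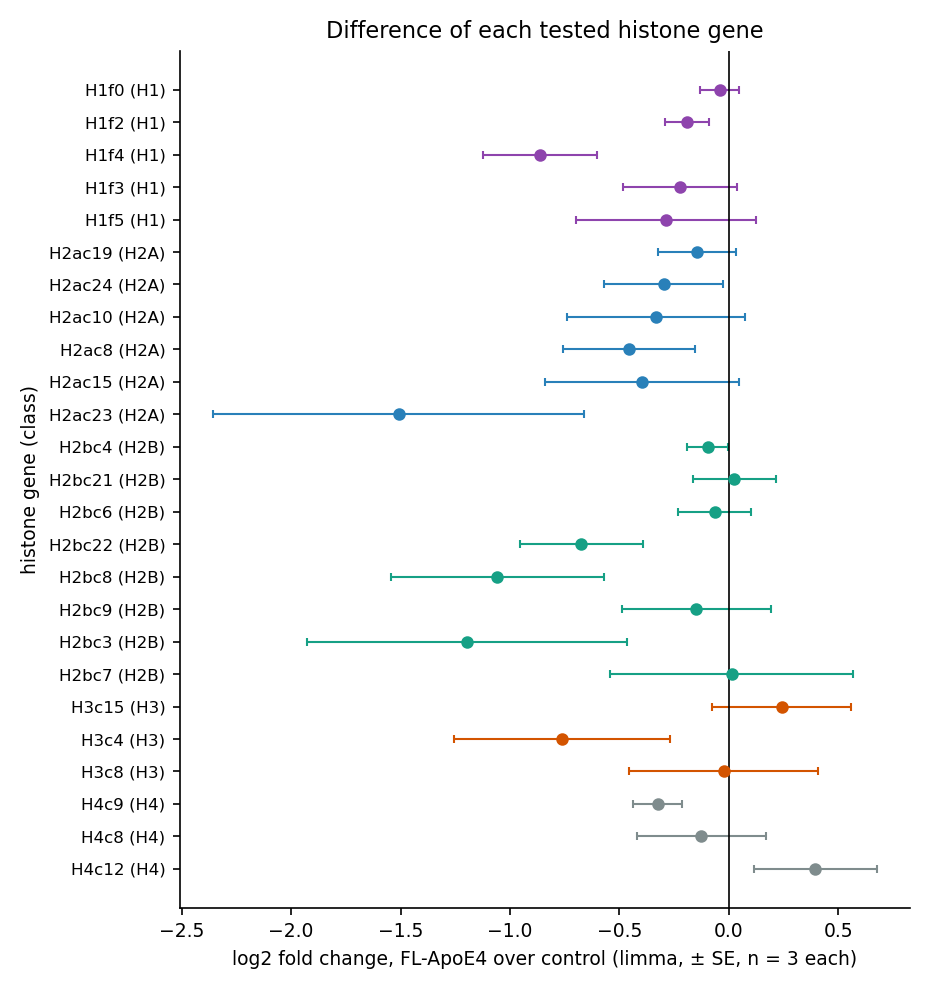
Log2 fold change of FL-ApoE4 over control (x axis) for each of the 25 tested histone genes (y axis, ordered by class and level); points are limma estimates on the log2(normalised reads + 1) scale and bars their SE (n = 3 each). Points of 21 genes lie left of 0, and the bars are widest for the scarce genes.

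Among linker histones, H1f0, the replication-independent gene, had 1091, 942 and 1054 normalised reads with FL-ApoE4, against 984, 1160.0 and 1035 in controls. The groups overlapped throughout, with a log2 fold change of -0.04 ± 0.09 (SE, n = 3 each; adjusted p = 0.905 by limma). H1f2, the most abundant S-phase linker histone here, had 606, 575 and 627 with FL-ApoE4, against 613, 779 and 680.3 in controls. The lowest control, replicate 1, lay between FL-ApoE4 libraries, and the log2 fold change was -0.19 ± 0.10 (adjusted p = 0.473 by limma). Without control replicate 1 it was -0.27, and over all fits with a library left out it ranged from -0.27 to -0.10.

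H1f4, another main somatic linker histone, had 14.5, 20.4 and 26.4 normalised reads with FL-ApoE4, against 42.4, 34.1 and 34.9 in controls. Every FL-ApoE4 library was below every control, and the log2 fold change of -0.86 ± 0.26 missed the threshold (adjusted p = 0.236 by limma). The GRCm38 transcripts of H1f4 and H2bc6 overlap on the same strand, so reads in the overlap could belong to either gene. H1f3 had 31.2, 20.4 and 26.4 with FL-ApoE4, against 39.1, 28.5 and 24.5 in controls, and H1f5 had 7.81, 9.27 and 10.8 with FL-ApoE4, against 6.52, 19.9 and 11.3. Both overlapped between groups, with log2 fold changes of -0.22 ± 0.26 and -0.29 ± 0.41.

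The H2A genes encode a core histone that pairs with H2B at the faces of the nucleosome. H2ac19 had 49.1, 50.1 and 46.0 normalised reads with FL-ApoE4, against 65.2, 51.2 and 46.2 in controls (log2 fold change -0.15 ± 0.18). H2ac24 had 44.6, 58.4 and 34.3 with FL-ApoE4, against 42.4, 74.0 and 53.7 in controls (-0.30 ± 0.27). In both genes the FL-ApoE4 values reached into those of the controls. All 50-base windows of the H2ac19 transcript occur in other genes' transcripts, as do 93.1% of those of H2ac24, so reads could have been assigned between copies or left uncounted.

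H2ac10 had 17.8, 13.9 and 29.4 normalised reads with FL-ApoE4, against 14.1, 33.2 and 32 in controls, H2ac8 had 12.3, 11.1 and 21.5 with FL-ApoE4, against 21.7, 20.9 and 17.9, and H2ac15 had 4.46, 8.34 and 13.7 with FL-ApoE4, against 7.60, 11.4 and 15.1. Their log2 fold changes were -0.33, -0.46 and -0.40, and each overlapped between groups. H2ac23 had 1.12, 4.64 and 3.92 normalised reads with FL-ApoE4, against 41.3, 3.79 and 5.65 in controls. Its high value was in control replicate 1 alone, and its log2 fold change of -1.51 ± 0.85 became -0.54 without that library.

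H2B held the most abundant member. H2bc4 had 1275, 1051 and 1099 normalised reads with FL-ApoE4, against 1290.2, 1239.7 and 1128 in controls, with a log2 fold change of -0.10 ± 0.09 (adjusted p = 0.721 by limma). H2bc21 had 441, 459.8 and 517 with FL-ApoE4, against 336, 553 and 536 in controls, and H2bc6 had 207, 204 and 236 with FL-ApoE4, against 175, 261 and 251. In H2bc21 and H2bc6 control replicate 1 was the lowest of the 6 libraries and the other controls were the highest, which put the log2 fold changes at 0.02 ± 0.19 and -0.06 ± 0.17. Without control replicate 1 they were -0.21 and -0.25. Over all fits with a library left out, they ranged from -0.21 to 0.15 for H2bc21 and from -0.25 to 0.04 for H2bc6.

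H2bc22 had 16.7, 16.7 and 25.5 normalised reads with FL-ApoE4, against 27.2, 26.6 and 42.4 in controls. The highest FL-ApoE4 library lay just below the lowest control, and the log2 fold change of -0.67 ± 0.28 missed the threshold (adjusted p = 0.364 by limma). H2bc8 had 17.8, 4.64 and 14.7 with FL-ApoE4, against 17.4, 32.2 and 23.6 in controls (log2 fold change -1.06 ± 0.49, adjusted p = 0.417). H2bc3 had 6.69, 0.927 and 15.7 with FL-ApoE4, against 15.2, 10.4 and 15.1 in controls (-1.20 ± 0.73, adjusted p = 0.539). FL-ApoE4 replicate 2 gave the lowest value of both genes, a single read for H2bc3. Of the remaining H2B genes, H2bc9 had 11.2, 14.8 and 12.7 with FL-ApoE4, against 21.7, 9.48 and 14.1 in controls, and H2bc7 had 6.69, 7.42 and 16.6 with FL-ApoE4, against 4.34, 19.0 and 9.42, with log2 fold changes of -0.15 and 0.01.

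The H3 genes were the scarcest class. H3c15 had 27.9, 13.9 and 21.5 normalised reads with FL-ApoE4, against 14.1, 21.8 and 16 in controls (log2 fold change 0.24 ± 0.32). H3c4 had 19.0, 6.49 and 4.89 with FL-ApoE4, against 20.6, 11.4 and 15.1 in controls (-0.76 ± 0.49). H3c8, whose stem-loop core is shared with no other matched member, had 5.58, 9.27 and 18.6 with FL-ApoE4, against 10.9, 11.4 and 8.48 in controls (-0.02 ± 0.43). The groups overlapped for all 3 genes, and the spread within FL-ApoE4 exceeded the difference between groups.

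Among H4 genes, which encode the most conserved core histone, H4c9 had 152, 132 and 161 normalised reads with FL-ApoE4, against 185, 189 and 182 in controls. It averaged 148 ± 14.8 with FL-ApoE4 and 185 ± 3.47 in controls (SD, n = 3 each), the groups did not overlap, and the log2 fold change of -0.33 ± 0.11 missed the threshold (adjusted p = 0.290 by limma). H4c9 supplied most of the reads of its class. H4c8 had 8.92, 12.1 and 10.8 with FL-ApoE4, against 9.77, 15.2 and 10.4 in controls (-0.13 ± 0.30). H4c12 had 10.0, 11.1 and 13.7 with FL-ApoE4, against 8.69, 7.59 and 9.42 in controls (0.39 ± 0.28, adjusted p = 0.608) and was the only tested member with every FL-ApoE4 library above every control.

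**Figure D4:**
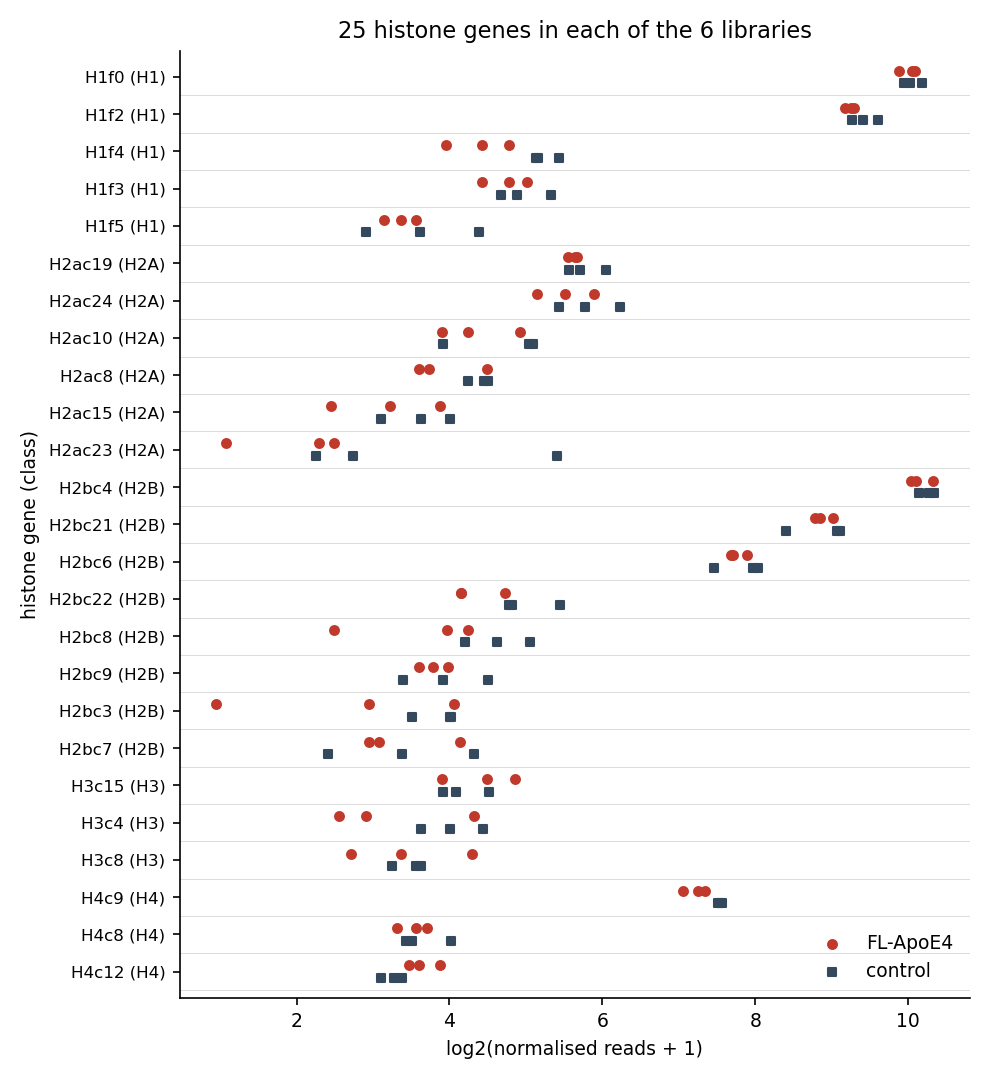
Log2(normalised reads + 1) (x axis) of the 25 tested histone genes (y axis, by class) in each FL-ApoE4 library (circles, upper row of each gene) and each control library (squares, lower row). The groups are apart for H1f4, H2bc22, H4c9 and H4c12, and the single high square of H2ac23 is control replicate 1.

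The libraries of a group differed. FL-ApoE4 replicate 2 was the lowest of the 6 libraries in 11 of the 25 members, and control replicate 2 was the highest of the 6 in 11. Control replicate 1 was the lowest of its group in 12 members and the highest of the 6 libraries in 8. Measured as the median difference from the control mean on the log2 scale, the members stood at -0.34, -0.28 and -0.09 in FL-ApoE4 replicates 1 to 3 and at -0.10, 0.05 and -0.02 in control replicates 1 to 3. Without FL-ApoE4 replicate 3 the members' median log2 fold change was -0.36, and without control replicate 2 it was -0.13. Without control replicate 1, 651 genes passed the threshold (4.62% of those tested) and 0 of the 25 members did, with a smallest adjusted p of 0.121 and 7 members at an unadjusted p under 0.05, all lower (8.95% of all genes).

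By position, the 53 members on chromosome 13, which carries the main mouse histone cluster, summed to 2565, 2283 and 2562 normalised reads with FL-ApoE4, against 2744, 3009.6 and 2717 in controls (log2 ratio -0.19), without overlap. The 10 members on chromosome 3 summed to 551, 554 and 617 with FL-ApoE4, against 449, 661 and 625 in controls (-0.01) and overlapped. H2bc21 supplied most of these reads, and 336 of the 449 in control replicate 1. Without control replicate 1 the log2 ratio was -0.16 for chromosome 3 and -0.21 for chromosome 13. By annotated end, the 20 genes ending near the stem-loop had 183, 210.4 and 221 with FL-ApoE4, against 273, 276 and 236 in controls (-0.35), without overlap. Here too H2ac23 supplied 41.3 of the 273 in control replicate 1. The 23 extended genes had a log2 ratio of -0.24 and the 7 long-ended genes without a match -0.06, both with overlap. Where sums did not overlap, 10.9% of the 14079 single genes tested showed the same arrangement. The groupings by position and by end share members, and no test was made of them.

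The machinery around histone messages was read from the same fit over all genes. In the 6 related lists limma and edgeR called 0 genes, and DESeq2 called Cdc45 alone (2.77% of all genes). Over all genes tested, 49.7% were negative by limma. Of 14 tested genes of histone pre-mRNA processing and translation, 10 were negative, the median was -0.05 and 0 had an unadjusted p under 0.05. Slbp, the stem-loop binding protein, had 3017, 2735 and 2769 normalised reads with FL-ApoE4, against 3014, 3100 and 3173 in controls (log2 fold change -0.12 ± 0.06, adjusted p = 0.424 by limma). Its replicate 1 values were nearly equal in both groups, and the other FL-ApoE4 libraries were lower than the other controls. Lsm10, of the U7 small nuclear ribonucleoprotein, had -0.15 ± 0.07 and Ncbp1, of the nuclear cap-binding complex, -0.08 ± 0.04. Of 15 genes of histone mRNA decay, 14 were negative (median -0.06) and 0 had an unadjusted p under 0.05; those of lowest p were Dis3 (-0.10) and Exosc10 (-0.08), both exosome nucleases, and Eri1 (-0.06), the exonuclease that trims the stem-loop end.

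Of 13 genes that control transcription at the histone loci, all were negative with a median of -0.06 (49.7% of all genes tested were negative). Yy1 alone was lower at an unadjusted p under 0.05 by limma (6.33% of all genes were). Yy1, a transcription factor, had -0.11 ± 0.04 (adjusted p = 0.338 by limma), Ccna2, the S-phase cyclin, -0.09 and Pou2f1, the octamer-binding factor, -0.45 ± 0.26. Of 9 replication-independent variants, 7 were negative, the median was -0.03 and 0 had an unadjusted p under 0.05. H1f0 is counted both among these 9 and among the 25 tested members. Macroh2a2 had 0.51 ± 0.24, H3f3b -0.16 ± 0.10 and Macroh2a1 -0.05.

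The genes of DNA synthesis in S phase and the histone chaperones were measured with far more reads than the histones. Of 25 S-phase genes, 23 were negative (49.7% of all genes were) with a median of -0.09. At an unadjusted p under 0.05 by limma, 5 were lower (6.33% of all genes were). Cdc45, of the replicative helicase, had 4151, 3928 and 4092 normalised reads with FL-ApoE4, against 5011, 4797 and 4905 in controls. The groups were well apart, with a log2 fold change of -0.27 ± 0.05 (adjusted p = 0.112 by limma, 0.113 by edgeR and 0.00137 by DESeq2). Rrm2, of ribonucleotide reductase, had -0.17 ± 0.05 and Mcm3, also of the helicase, -0.15 ± 0.05. Of 24 chaperones, 22 were negative (median -0.05) and 2 were lower at an unadjusted p under 0.05; Chaf1b, of chromatin assembly factor 1, had -0.20 ± 0.06 (adjusted p = 0.232 by limma), Nasp, an H3 and H4 chaperone, -0.16 ± 0.05 and Hira, the H3.3 chaperone, 0.10 ± 0.06. Without control replicate 1 limma called Chaf1a (adjusted p = 0.0499) and Chaf1b (0.0421) among the chaperones, and Mcm2 (0.0400) and Cdc45 (0.0256) among the S-phase genes, all lower. That fit called 651 genes (4.62% of those tested), 238 of them lower, and no other omission of a library called more than 1. With every library kept, the adjusted p by limma was 0.594 for Chaf1a and 0.526 for Mcm2. Most chaperone and S-phase values had the same sign as those of most histone genes, and their part in the histone values was not tested.

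**Figure D5:**
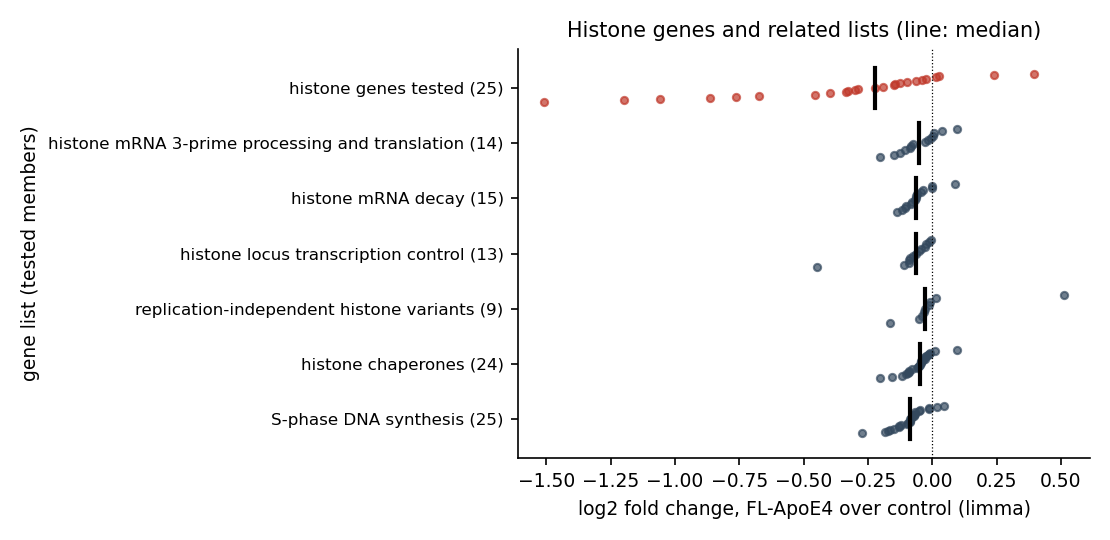
Log2 fold change of FL-ApoE4 over control (x axis) for the tested members of the histone set (top row) and of 6 related gene lists (y axis, tested members in parentheses); each point is a gene and the black line the list's median. The histone genes spread more widely (median -0.22) than the S-phase genes (median -0.09), whose points are mostly left of 0. H1f0 appears both in the histone row and among the replication-independent variants.

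The libraries held 45700128 to 54965393 reads with FL-ApoE4 and 48784016 to 54038912 in controls, so the 25 members rested on counts from a single read (H2bc3, FL-ApoE4 replicate 2) upward and counting error was large for those with a mean near 10. The cell type label was checked on markers. Of 12 microglia and macrophage markers, 11 were tested, and all were positive with a median of 0.20 (49.7% of all genes tested were negative). Limma and edgeR called 0 of them, and DESeq2 called 4 (2.77% of all genes). By limma, 5 were higher at an unadjusted p under 0.05 (6.81% of all genes were). The list summed to 205569 to 212067 normalised reads with FL-ApoE4 and 185574 to 189722 in controls. P2ry12 was listed at 0 in all libraries. Markers of other cell types were low. The neuron list summed to 62.1 to 80.3 with FL-ApoE4 and 84.4 to 88.6 in controls, and the astrocyte list (Aqp4 at 0) to 67.7 to 75.4 with FL-ApoE4 and 53.1 to 90.1 in controls. The oligodendrocyte list (Mobp at 0) summed to 1211 to 1297 with FL-ApoE4 and 1151 to 1242 in controls, and the fibroblast and endothelium list to 24.5 to 30.6 with FL-ApoE4 and 15.1 to 28.2 in controls.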

How the data were processed

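Total RNA of 6 BV2 samples was sequenced from directional libraries, per the labels' protocols. The tools named are HISAT2 2.2.1, HTSeq, DESeq2 1.30.1 and FastQC 0.11.8, on build GRCm39, per the submitters' processing notes. The sources used here do not give the strand setting, the read length or the treatment of reads with several matches, which leaves near-identical, overlapping and antisense genes uncertain. The deposited values are a normalised signal per gene, 100% of them whole multiples of what a single read is worth in their library (tolerance 0.01), so whole reads were recovered by division. The authors' deposited table also gives a log2 fold change, its error, a test score, a p-value and an adjusted p-value per gene, used only where named.

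Groups were compared with limma 3.58.1 in R 4.3.3 (two-sided, mean-variance trend) on log2(value + 1) for the 14079 genes of mean at least 10. Benjamini-Hochberg adjustment ran over all of them, with a threshold of 0.05. On this scale changes of low genes could come out smaller or larger than by edgeR and DESeq2. H2ac23 had -1.51 by limma, -2.24 by edgeR and -2.37 by DESeq2, whereas H2bc3 had -1.20, -0.80 and -0.81. Alternatives were edgeR 4.0.16 and DESeq2 1.42.0 on the recovered reads, a pseudocount of 0.5 or 5, no filter or a mean of at least 50, 3 scalings, a correction for length and GC content (known for 93.4% of tested genes), a block for the replicate number, and fits that left out each library in turn. The fits were tested on simulated data.

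Members were chosen by symbol, and members and lists were chosen with earlier results of these data known. Every member of mean at least 10 is named, and up to 3 genes of lowest p in each list; Chaf1a, Mcm2, the variants given by level and the related genes listed at 0 are not covered by it and were chosen with their values in view. Names were matched through RefSeq GRCm38.p6 to GENCODE M21 transcripts (67 of 69). As that build differs from the authors', no coordinates are given.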

Additional observations from a re-analysis of the deposited data

How the results depend on the processing

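No histone gene was called under any of the alternatives run. Over all genes, the count of 0 became 1 without a filter, 13 with length and GC trends removed and 390 by DESeq2. It ranged from 0 to 651 with a library left out, 651 without control replicate 1 and 1 without FL-ApoE4 replicate 2, and the cause was not tested. The members' median log2 fold change ranged from -0.36 to -0.13 with a library left out. Over the same 25 members it ranged from -0.27 (quantile normalisation) to -0.20 (pseudocount of 5) under the other alternatives. Where the filter changed the genes, it was -0.29 over 63 members without a filter and -0.12 over 8 with a mean of at least 50. The log2 ratio of the summed reads of all members ranged from -0.18 to -0.07 with a library left out. In 8 genes the sign changed under some alternative; the cause was not tested. H3c8 was 0.0081 with a pseudocount of 5, 0.041 with quantile normalisation, 0.14 by edgeR and 0.13 by DESeq2. H2bc7 was -0.013 with a pseudocount of 5, -0.059 with length and GC trends removed (with or without the replicate block), -0.10 by edgeR and -0.10 by DESeq2. H2bc21 was -0.0012 with quantile normalisation, -0.0063 by edgeR and -0.012 by DESeq2. With a library left out, the log2 fold change ranged from -0.093 to 0.026 for H1f0, -0.65 to 0.086 for H1f5, -0.21 to 0.15 for H2bc21, -0.25 to 0.040 for H2bc6, -0.46 to 0.49 for H2bc7, -0.42 to 0.13 for H2bc9, -0.44 to 0.35 for H3c8 and -0.24 to 0.057 for H4c8. Samples with the same replicate number varied together weakly at most (correlations 0.13, 0.07 and -0.03). The best match was its own number for replicate 1 alone, so the pairing is not used. Relative to the other libraries of its group, replicate 1 was shifted toward shorter transcripts in both groups. The Spearman correlation of this shift with transcript length was -0.16 in controls and -0.45 with FL-ApoE4. It was 0.08 to 0.33 in the remaining libraries, and the cause was not tested. A replicate block called 0 genes and left the members' median at -0.22. Genes with a mean near 10 rest on about as many reads, which makes their counting error large, and near-identical copies limit which gene a read is assigned to.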
